A study of Mus musculus with 9 samples.

Results

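TRP channels are cation channels that open to heat, cold, irritants, lipids or receptor signalling, and the mucolipins are their relatives in the membranes of endosomes and lysosomes. 9 genes of these families were followed in mouse dorsal root ganglia (DRG) after sciatic nerve injury: the vanilloid channels Trpv1 and Trpv2, the ankyrin channel Trpa1, the melastatin channels Trpm8 and Trpm3, the canonical channels Trpc1 and Trpc6, and the mucolipins Mcoln1 and Mcoln2. The genes were selected on their values in these same arrays, by name, older name or RefSeq accession in the scanner files, and every probe of each was taken. Of the 9 genes, 8 had a probe, with 14 probes among the 41174 on the arrays, whose tested probes named 16494 genes by a current symbol. No probe was matched to Trpv1, the capsaicin and heat receptor of nociceptors, which is not analysed here.

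DRG hold the cell bodies of the sensory neurons, together with satellite glia, Schwann cells, macrophages and vessels. In sensory neurons, TRP channels turn thermal and chemical stimuli into depolarisation: Trpv1 and Trpa1 mark nociceptors, Trpm8 is the receptor for cool temperatures and menthol, and Trpm3 responds to heat and to steroids such as pregnenolone sulfate. Canonical TRP channels act downstream of receptors that couple to phospholipase C, with Trpc6 opened by diacylglycerol, while mucolipins release calcium and other cations from endolysosomes.

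The study asked which mRNAs changed in ganglia whose peripheral axons had been cut. Total RNA of L3/L4 DRG was taken from adult mice, as 5 injured samples (labelled lesion) and 4 uninjured samples (labelled control), and each was hybridised to 1 Agilent array. All 9 samples, the controls included, carry the labels cre.neg and jun.wt, read here as Cre-negative with wild-type Jun. The labels and the methods give transection of the sciatic nerve 3 days before dissection, although the results text of the study gives 24 hr and the figure legend a crush. One source label of the control samples also reads as if they had been transected, and the treatment label was used for the groups. For nerve crush, the study's methods took uninjured DRG of the other side as controls. For the arrays they name uncrushed DRG without the animal. Whether control and injured samples came from the same mice is thus not known, so any pairing is left out of the fit. Sex, exact age and the animal behind each sample are not given in the sources used here, so p-values measure the spread between these samples. Samples are numbered here in accession order, as injured 1 to 5 and uninjured 1 to 4.

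Every array carried cRNA of 1 sample in Cy5 beside a commercial universal mouse reference in Cy3, so each value below is a log2 ratio of sample over reference at 1 probe. Ratios of different probes to the reference are not comparable as levels, and with no dye swap no ratio was tested against 0. The median Cy5 signal was between 156 and 238 on the 9 arrays, 70.2 to 78.4% of probes were well above background in Cy5, and arrays correlated with each other at r = 0.944 to 0.990. All 10 sensory neuron markers of the list were well above background on all 9 arrays. Slide 1 held uninjured 2, 3 and 4, slide 2 held uninjured 1 with injured 1, 2 and 5, and slide 3 held injured 3 and 4, so any value within a slide rests on uninjured 1 alone. Skeletal muscle markers stood apart on 2 arrays: the mean log2 ratio of 6 such genes was 2.62 on injured 4 and 1.14 on injured 2, against -1.36 to -0.77 on the other 7. The number of arrays limits the precision.

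Upstream sequence is shown for the member with the greatest difference, Mcoln2, for its sister gene Mcoln1, and for the member that was most reduced, Trpc6. Each run is the 250 bases before the annotated gene start in RefSeq, build GRCm38.p6, plus strand, with every CACGTG (an E-box) in capitals.
Mcoln2, chr3:146149924-146150173: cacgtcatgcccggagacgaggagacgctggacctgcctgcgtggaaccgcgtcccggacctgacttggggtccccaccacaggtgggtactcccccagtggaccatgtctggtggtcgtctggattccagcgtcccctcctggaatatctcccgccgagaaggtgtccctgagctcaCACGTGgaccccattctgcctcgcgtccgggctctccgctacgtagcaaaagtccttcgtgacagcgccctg
Mcoln1, chr8:3500269-3500518: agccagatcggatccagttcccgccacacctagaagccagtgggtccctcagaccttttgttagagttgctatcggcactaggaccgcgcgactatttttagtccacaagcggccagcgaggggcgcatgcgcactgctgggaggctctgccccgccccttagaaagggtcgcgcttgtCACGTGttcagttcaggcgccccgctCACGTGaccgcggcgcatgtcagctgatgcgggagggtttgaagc
Trpc6, chr9:8543892-8544141: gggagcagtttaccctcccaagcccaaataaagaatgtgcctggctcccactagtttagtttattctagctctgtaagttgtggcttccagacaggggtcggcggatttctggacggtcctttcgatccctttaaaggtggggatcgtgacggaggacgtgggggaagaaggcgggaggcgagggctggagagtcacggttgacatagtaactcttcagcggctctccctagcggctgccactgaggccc
CACGTG is the E-box core that transcription factors of the TFEB family and others bind. It stood once in the Mcoln2 stretch, 72 bases before the start, and at 71 and 45 bases before the start of Mcoln1. Of 32851 RefSeq promoter stretches of this length, 6.02% held CACGTG on either strand (it reads the same on both). Stretches were found for 8 of the 9 members, Trpv1 included, and none for Trpa1. None of these 11 stretches held the AP-1 motif TGANTCA (in 6.75% of all), the cAMP-response motif TGACGTCA (1.55%) or the longer CLEAR motif (0.24%), which holds the E-box in its middle. These matches describe letters in the sequence only.

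Mcoln2 was higher on every injured array, with the widest difference among the members. Mcoln2 encodes mucolipin-2 (TRPML2), a channel of recycling endosomes and lysosomes best known in immune cells. At its probe (NM_026656, chr3:146093577-146093636, mm7, plus strand), the log2 ratio was -3.13, -2.95, -3.06 and -3.03 on uninjured 1 to 4 and -0.60, -0.60, -0.82, -0.77 and -0.52 on injured 1 to 5. All 5 injured arrays lay above all 4 uninjured arrays, and the gap between the groups was many times the range within either. Uninjured ganglia averaged -3.04 ± 0.073 (SD, n = 4) and injured ganglia -0.66 ± 0.13 (SD, n = 5), a difference of 2.38 with a standard error of 0.076, or 5.19-fold. Because the members were chosen on this contrast, these values are a description and carry no test. The difference stood at the 99.9th percentile of 31186 probes.

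The probe was well above background in Cy5 on all 9 arrays, uninjured ones included. In the sample channel alone, on its own scale of log2 Cy5 signal, the mean went from 6.82 to 9.14. The size of the difference moved with the treatment of background: the fold was 9.26 without the offset of 50 that was added to the signals and 13.03 with the ratio computed by the scanner software. Within slide 2 the difference was 2.55.

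Mcoln1, the mucolipin present in lysosomes of most cells and mutated in mucolipidosis type IV, differed little. At the probe of its RefSeq transcript (NM_053177, chr8:3429218-3429277, mm7) the log2 ratio was 0.58, 0.76, 0.59 and 0.70 on the uninjured and 0.62, 0.70, 0.44, 0.52 and 0.86 on the injured arrays. The groups overlapped, with a difference of -0.03 (SE 0.088). A probe 0.756 kb upstream (AK008732) gave 0.03 (SE 0.16), also with overlapping groups. Within slide 2 they gave 0.15 and 0.31. Over all arrays, the difference at each of these probes was below the spread among arrays of either group. The third mucolipin, Mcoln3, had 2 probes, both not well above background on any array, and was not tested.

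**Figure D1:**
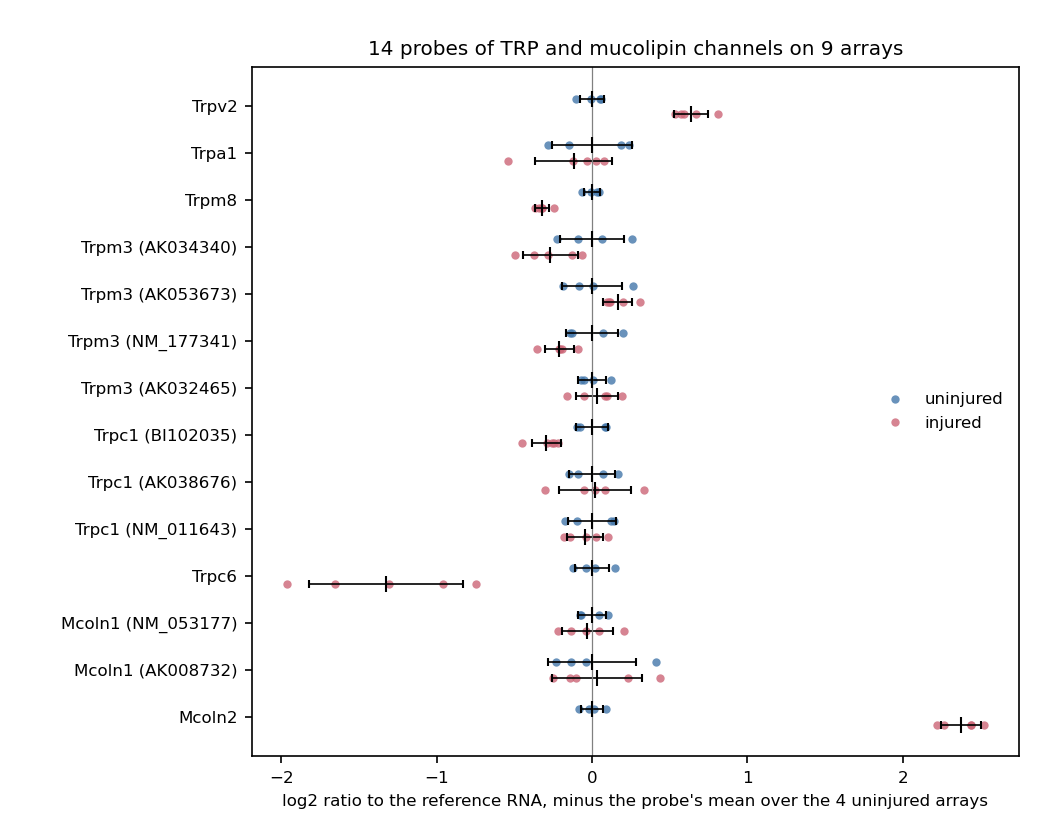
Log2 ratio to the reference RNA at each of the 14 probes (x axis, minus that probe's mean over the uninjured arrays), with 1 point per array, uninjured in blue and injured in red, and the mean ± SD in black. The injured points lie clear of the uninjured ones at 5 probes, Mcoln2 and Trpv2 to the right and Trpm8, the first Trpc1 probe and Trpc6 to the left.

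Of the vanilloid and ankyrin channels, Trpv2 was higher in injured ganglia and Trpa1 overlapped. Trpv2 is a calcium-permeable channel found in medium and large sensory neurons and in macrophages. Its probe (NM_011706, chr11:62681684-62681743, mm7) read 1.51, 1.57, 1.40 and 1.56 on the uninjured arrays and 2.18, 2.10, 2.04, 2.08 and 2.32 on the injured arrays. The lowest injured array was above the highest uninjured array. The means of 1.51 ± 0.076 (SD, n = 4) and 2.14 ± 0.11 (SD, n = 5) differed by 0.64 (SE 0.071), or 1.55-fold, and the difference was 0.69 within slide 2.

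Trpa1, the receptor for mustard oil and other reactive irritants, read 2.45, 2.51, 2.12 and 1.98 on the uninjured and 2.35, 2.29, 2.23, 2.14 and 1.73 on the injured arrays (NM_177781, chr1:15055438-15055497, mm7). Both groups covered nearly the same range, and only injured 5 fell below every uninjured array. The difference was -0.12 (SE 0.14), and it was -0.01 without injured 5 and -0.33 within slide 2. A change of Trpa1 was thus not resolved from the spread between arrays.

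Mcoln2 and Trpv2 are also expressed by immune cells, and macrophage markers were higher on average after injury. Of 11 macrophage genes, 3 rose (Aif1, Itgam and Cd14) and none fell, and none of these 3 passed with slide as a block. Of all probes tested, 10.5% rose and 13.1% fell. The median difference of the list was 0.55 and all 11 were higher on average in the injured group, with 10 of 11 well above background on all 9 arrays. The list's mean log2 ratio ran from -0.62 to 0.14 on the uninjured and from -0.10 to 0.78 on the injured arrays, so the groups overlapped. Within slide 2 it was -0.35 on uninjured 1 and -0.10, 0.75 and 0.78 on injured 1, 2 and 5, all higher. Of 8 T and B lymphocyte markers none passed (median difference 0.10). The part of macrophages in these 2 differences was not tested, and in whole ganglia a change in the number of cells of a type and a change of RNA per cell cannot be told apart.

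**Figure D2:**
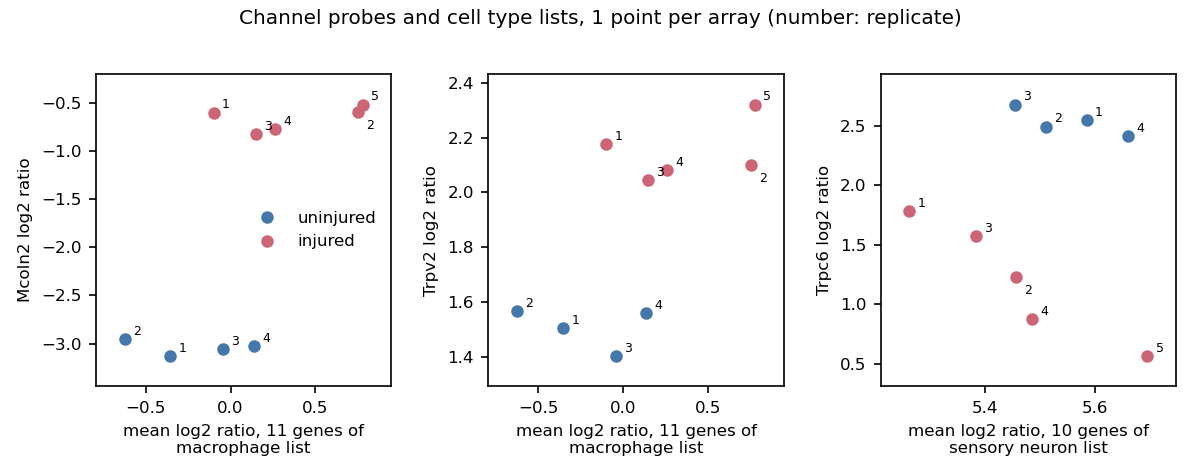
Log2 ratio of Mcoln2, Trpv2 and Trpc6 (y axes) against the mean log2 ratio of the macrophage or sensory neuron list (x axes), 1 point per array, numbered by replicate. Injured and uninjured arrays overlap along the x axes and are separate along the y axes, and on the injured arrays Trpc6 is lowest where the neuron mean is highest.

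The canonical channel Trpc6 was reduced in injured ganglia, with a wide spread among them. Trpc6 is a diacylglycerol-gated, receptor-operated channel, studied in sensory neurons for mechanical hypersensitivity. At its probe (NM_013838, chr9:8705039-8705098, mm7, plus strand) the log2 ratio was 2.55, 2.49, 2.68 and 2.41 on the uninjured arrays and 1.79, 1.23, 1.58, 0.88 and 0.57 on the injured arrays. All injured arrays lay below all uninjured arrays. The means were 2.53 ± 0.11 (SD, n = 4) and 1.21 ± 0.50 (SD, n = 5), a difference of -1.33 (SE 0.21), or 2.51-fold, and only 19 of 31186 probes had a lower one. The SD was 4.44 times as wide among injured as among uninjured arrays, from a range of 1.22 against 0.27.

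The reduction of Trpc6 kept its direction with any array left out. Leaving out injured 5, the lowest array, gave -1.17, leaving out injured 1, the highest, gave -1.47, and slide 2 alone gave -1.36. Without the offset of 50 the difference was -1.97, or 3.92-fold. Over the 5 injured arrays Trpc6 stood in the reverse order of the sensory neuron list mean, which was 5.26, 5.46, 5.38, 5.49 and 5.70 on injured 1 to 5. The list mean was 5.45 to 5.66 on the uninjured arrays, within the injured range. Of its 10 genes 1, the transcription factor Isl1, fell (-0.51, adjusted p = 0.000143 by limma). None rose, and of all probes tested 13.1% fell and 10.5% rose. The part of neuron content in the Trpc6 values was not tested.

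Trpc1, a subunit that joins other canonical channels, was covered by 3 probes that gave different differences. The probe farthest along the strand (BI102035, chr9:95351363-95351422, mm7, minus strand) read 1.73, 1.55, 1.56 and 1.74 on the uninjured and 1.43, 1.40, 1.39, 1.36 and 1.19 on the injured arrays. These groups did not overlap, and their difference was -0.29 (SE 0.071). The probe of the RefSeq transcript (NM_011643), gave -0.05 (SE 0.087), and the most upstream probe (AK038676) gave 0.02 (SE 0.12). In the direction of transcription these lay 38.9 kb apart, with the reduced probe at 43.5 kb from the most upstream one. At both, the groups overlapped, so the reduction of Trpc1 was seen at 1 of 3 probes. With the 3 probes averaged it was -0.11.

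Of the melastatin channels, Trpm8 was slightly lower on all injured arrays. Its probe (NM_134252, chr1:88284600-88288319, mm7, plus strand) spans 3720 bases of the genome, while those of the other members span 60. It read 0.87, 0.97, 0.92 and 0.96 on the uninjured arrays and 0.56, 0.59, 0.61, 0.61 and 0.68 on the injured arrays. The groups did not overlap, at a mean of 0.93 ± 0.049 (SD, n = 4) against 0.61 ± 0.045 (SD, n = 5), and the difference was -0.32 (SE 0.054), or 1.25-fold. The signal was dim, brighter than 12.5% of probes tested, and the reference was not well above background on any array, so the ratio to the reference is a lower bound. The difference was -0.45 in Cy5 alone, -0.57 with the scanner software's ratio and -0.25 within slide 2.

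Trpm3 had 4 probes, at which injured and uninjured arrays overlapped. Taken along the gene from 5' to 3', their differences were 0.16 (AK053673, SE 0.091), 0.03 (AK032465, SE 0.080), -0.21 (NM_177341, SE 0.085) and -0.27 (AK034340, SE 0.11), over 136 kb. At the last and brightest probe, the log2 ratio was 3.62, 3.14, 3.27 and 3.43 on the uninjured and 3.24, 3.31, 2.87, 2.99 and 3.08 on the injured arrays, which share the interval from 3.14 to 3.31. The 2 probes at the 3' side gave lower and the 2 at the 5' side higher means after injury, without a clear gap at any of them. Neither side was stable in size: AK053673 turned to -0.06 within slide 2 and -0.03 with background fitted to all spots, and AK032465 to -0.02 in the latter, while AK034340 reached -0.79 with the scanner software's ratio and NM_177341 reached -0.67 without the offset. At the other 3 probes the reference was not well above background on any array. No annotation of mm7 was used here, so the exons that the probes of Trpc1 and Trpm3 lie in are not given.

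Counted over the 14 probes, 6 had a higher and 8 a lower mean after injury, with a median difference of -0.04, beside -0.0045 over all probes tested. All 14 were well above background in Cy5 on all 9 arrays, and none was missing. At an adjusted p under 0.05 (limma, Benjamini-Hochberg over all probes) 5 of the 14 passed, 2 higher and 3 lower, where 23.5% of all probes tested passed, 10.5% higher and 13.1% lower. The groups did not overlap at the same 5 probes, 2 with all injured above and 3 with all injured below, which was so for 10.1% and 12.5% of all probes. Since the genes were chosen by these values, nothing is read from these counts. With slide as a block, the differences were 2.55 for Mcoln2, 0.69 for Trpv2, -1.36 for Trpc6, -0.39 for the first Trpc1 probe and -0.25 for Trpm8. That fit compares within slide 2 and holds 1 uninjured array, so no call of a member is read from it.

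The reference channel is the denominator of these ratios, and its signal was also compared by itself. The same reference RNA was on every array, and of the 14 probes 10 were well above background in Cy3 on at least 4 arrays. None of the 10 passed between the injured and uninjured arrays (limma, adjusted p under 0.05), beside 0.104% of all probes, and 1, Trpc6, had an unadjusted p under 0.05, with a difference of 0.08. Because the genes were chosen on ratios that hold this channel, these values too are a description. For Mcoln2 the log2 Cy3 signal was 9.11 and 9.15 in the 2 groups, and for Trpv2 10.7 and 10.7.

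Other genes of the TRP superfamily were tested in the same fit. Of 18 listed genes 12 had a probe above background on at least 4 arrays, and 1 rose, 2 fell and 9 did not pass. The median difference was -0.08, and of all probes tested 10.5% rose and 13.1% fell. Trpc4, a channel coupled to Gq and Gi receptors, fell by 0.80 (SE 0.10, adjusted p = 0.000328 by limma), although a second, dim probe showed 0.00. Trpm2, opened by ADP-ribose and oxidative stress, fell by 0.55 (SE 0.062, adjusted p = 0.000135). Trpm2 lost its call with slide as a block, which left 1 of the 3 calls, and 5 genes passed in Cy5 alone or with slide as a random block.

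Pkd2l1, a polycystin channel, rose (adjusted p = 0.0201 by limma), but was well above background on 4 of 5 injured arrays and on no uninjured array. It passed the filter on 4 arrays only through the injured group, where it was higher, so nothing is read from its call. Its log2 ratio differed by 0.37. In the Cy5 channel alone, its mean log2 signal was 6.35 on the uninjured and 6.87 on the injured arrays. The call was lost in 4 of 22 alternatives. The genes that did not pass were Trpv3 (-0.09), Trpv4 (0.23), Trpc2 (0.05), Trpc5 (-0.22), Trpm4 (-0.06), Trpm6 (0.20), Trpm7 (-0.15), Pkd2 (0.24) and Pkd2l2 (-0.18), at adjusted p from 0.113 to 0.719. Trpc5 was well above background on all uninjured and no injured array, and did not pass (adjusted p = 0.122). Trpv5, Trpv6, Trpc7, Trpm1, Trpm5 and Mcoln3 were too dim to test.

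**Figure D3:**
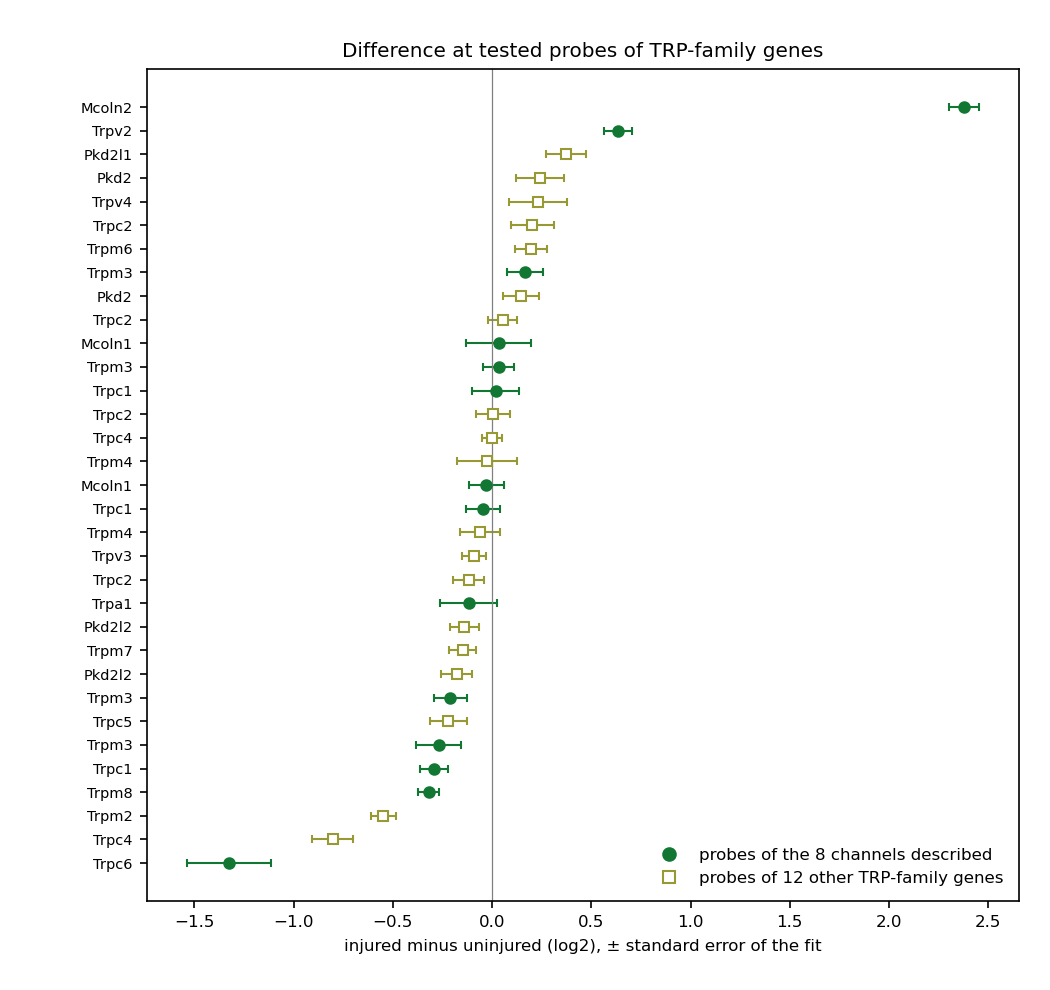
Injured minus uninjured difference (log2, x axis) with its standard error from the fit at the tested probes of the members (filled circles) and of 12 other TRP-family genes (open squares), 1 line per probe, sorted. Mcoln2 stands alone at 2.38, and Trpc6 lies lowest at -1.33, with Trpc4 next at -0.80.

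Listed genes known to act with these channels were lower more often than higher. All gene lists here were chosen with earlier results of these data known, so their counts are a description. Of 25 tested partners and regulators of TRP channels, 2 rose, 10 fell and 13 did not pass, with a median difference of -0.20, where 10.5% of all probes tested rose and 13.1% fell. With slide as a block 4 passed, all lower, and with median centring 7. The widest falls were at Tmem100 (-0.81), an adaptor between Trpa1 and Trpv1, Plcb3 (-0.77), the phospholipase C that couples receptors to TRP channels, Cdk5r1 (-0.71), the activator of the kinase Cdk5, and Plcd4 (-0.70), another phospholipase C. Src, a tyrosine kinase that phosphorylates TRP channels, rose by 0.34, and Gabarap, a trafficking protein, rose by 0.26. These 6 kept their sign in all 23 alternatives.

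Of 14 tested nociceptor markers, 2 rose, 6 fell and 6 did not pass, with a median difference of -0.20, beside the same 10.5% and 13.1% of all probes. Receptors of the glial cell line-derived neurotrophic factor family split, since Gfra2 fell by 0.75, whereas Gfra3 rose by 0.46 and the shared receptor Ret by 0.27. The sodium channels Scn9a and Scn11a fell by 0.54 and 0.45, and the neuropeptide gene Calcb by 0.45. Calcb turned to 0.13 with the most different setting, Scn11a was at -0.03 with its own, Gfra3 lost its call in 6 of 23 alternatives, and with slide as a block 2 of the 14 passed, both lower.

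Around the mucolipins, 28 genes of lysosomal calcium handling and of the TFEB family were tested, of which 4 rose, 8 fell and 16 did not pass, with a median difference of -0.01, again beside 10.5% higher and 13.1% lower of all probes. Of the transcription factors of the family, Tfe3 rose by 0.42 and Mitf fell by 0.43, while Tfeb, at -0.02, did not pass. The cathepsins Ctsd and Ctsb rose by 0.25 and 0.23 and the membrane protein Lamp2 by 0.17. Of 23 alternatives, Lamp2 passed in 8, Ctsd and Ctsb in 12 each, Mitf in 13 and Tpcn1 in 14. The lysosomal cation channel Tpcn1 fell by 0.41, Fig4, a phosphatase of the complex that controls the mucolipin-activating lipid, by 0.41, and the sialidase Neu1 by 0.36. This count was fragile, at 3 with median centring, 1 with slide as a block, 5 without uninjured 1, and 7 without uninjured 3, uninjured 4 or injured 4.

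The genes whose log2 ratios were most like each member's over the 9 arrays were taken as a description, since any gene that differs between the groups correlates with a member that does. For Mcoln2 they were Tubb6, a tubulin, Adam8, a metalloprotease, and Atf3, a transcription factor induced by axotomy, at Pearson r of 0.998, 0.997 and 0.997. For Trpc6 they were Polr3g, Klhl5 and Ptprm (0.997, 0.995 and 0.993), for Trpv2 Arhgap33, Plscr3 and Map7d1 (0.996, 0.994 and 0.992), for Trpm8 Tmem121, Ldb3 and Yipf2 (0.995, 0.990 and 0.989), and for the reduced probe of Trpc1 Usp34, Dclre1a and Kctd16 (0.995, 0.990 and 0.989). The members whose groups overlapped had lower values, from 0.958 to 0.979, led by Asb8 for Trpa1, LOC677429 for Trpm3 and Syt3 for Mcoln1. The points share the group, the slide and the reference RNA.

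The direction of the 5 non-overlapping probes did not depend on the processing settings that were run. Over 23 alternatives, Mcoln2 ran from 2.28 to 3.70, Trpv2 from 0.56 to 0.69 and Trpc6 from -1.97 to -1.17. Trpm8, whose dim probe the strictest filter removed, ran from -0.57 to -0.25 over 22. Its call was lost with the scanner software's ratio, at -0.57, and without the offset, at -0.48. The first Trpc1 probe ran from -0.39 to -0.25, and averaging the probes of Trpc1 gave -0.11. Its call was lost with that average and with median centring, at -0.37. Leaving out 1 array at a time moved Mcoln2 no further than 2.34 to 2.42 and Trpv2 than 0.59 to 0.66.

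**Figure D4:**
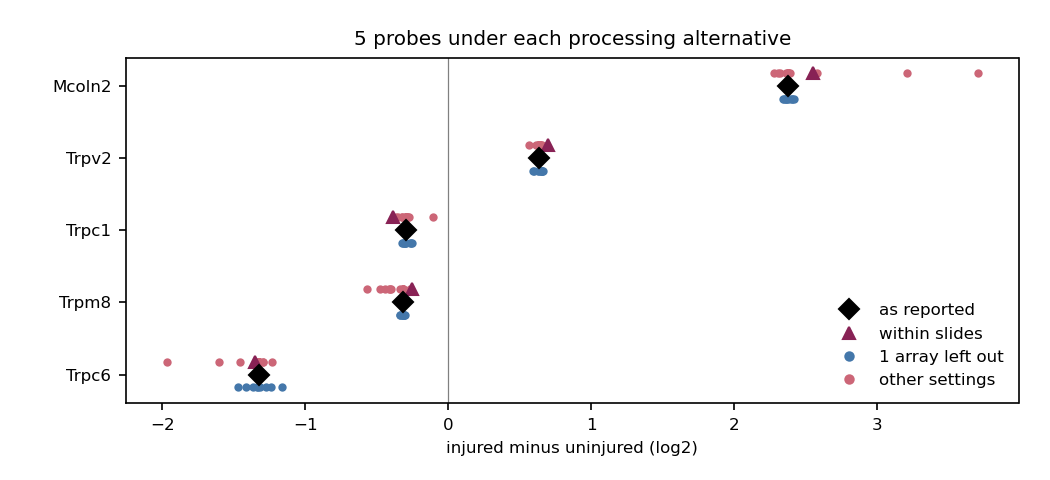
Injured minus uninjured difference (log2, x axis) of 5 probes as reported (black), within slides (triangles), with 1 array left out (blue) and under the other settings (red). All values lie on 1 side of 0 for each gene, and Mcoln2 and Trpc6 are farther from 0 when no offset is added to the signals.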

How the data were processed

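Microarray measurements of L3/L4 DRG were analysed from the deposited scanner files. The scanner intensities, as deposited, are the mean spot brightness and median local background of each channel, read with Agilent Feature Extraction and not normalized. The same files hold the deposited log10 ratios, made by that software with its own background and dye correction. The authors' log2 ratios of sample over reference were made with limma, per the labels, and were used as an alternative.

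In R 4.3.3 with limma 3.58.1, background was corrected by normexp (offset 50) fitted without spots of non-uniform local background, which pulled that fit off on 1 array (injured 2). Loess within arrays, removal of flagged spots and averaging of repeated spots followed, and the fit took the 31186 probes whose Cy5 signal was well above background on 4 or more arrays. An adjusted p under 0.05 after Benjamini-Hochberg was taken as passing. An offset understates the change of dim probes. Gene lists used the brightest probe of each gene. Alternatives were other background, scaling, filter, gene-level and slide settings and each array left out. The fit was tested on simulated data. Named genes were all members and the other TRP-family genes, up to 4 rises and 4 falls of each other list and the 3 genes most alike to each member. Members and lists were chosen with earlier results of these data known. 1 listed gene is not reported here and is left out of the list counts. 8455 probes kept their file name for want of a current symbol. Python 3.11.15 with matplotlib 3.10.9 drew the figures.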

Additional observations from a re-analysis of the deposited data

How the results depend on the processing

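No paired analysis was possible because neither titles nor descriptions say which animal a sample came from. Of 154 counts recomputed under an alternative, 130 stayed within 1.5 times the reported count. With slide as a fixed block, calls fell from 7339 to 1513 (839 higher, 674 lower), the other TRP genes called from 3 to 1, nociceptor markers from 8 to 2, partners from 12 to 4 and lysosomal genes from 12 to 1. Median centring gave 3516 calls, 7 partners and 3 lysosomal genes. Requiring more than 1.5-fold left 1629 calls, 1 other TRP gene, 1 nociceptor marker, 5 partners and 0 lysosomal genes (by limma, 12 without the fold). Cy5 alone and slide as a random block each gave 5 other TRP genes. A filter on both channels on all arrays left 5 nociceptor markers, as did background fitted to all spots and the scanner software's ratio, an offset of 0 left 4, and averaging the probes of a gene left 7 lysosomal genes. Leaving out 1 array at a time gave 5 to 10 lysosomal genes. In that series all calls ran from 5371 to 7480, other TRP genes from 2 to 3, nociceptor markers from 7 to 8 and partners from 11 to 12. The cause of these shifts was not tested. Non-overlapping member probes numbered 4 to 6 in all alternatives. The slide and filter settings leave the ratios unchanged, so there this count could only be 5, with Trpm8 still counted under the strictest filter. The 154 counts include these fixed ones. No member probe passed in the reference channel in any alternative (limma, 0 to 3 at an unadjusted p under 0.05). Signal over background limits Trpm8, 3 of the 4 Trpm3 probes and the fold of Mcoln2.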
